A study of Rattus norvegicus with 5 samples.

Results

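The skin of rats taken 28 days (28 d) after irradiation was compared with the skin taken 14 days (14 d) after it, cell type by cell type. The comparison rests on 1 library of single cells at each time. A barcode was kept when it held 500 or more unique molecular identifiers (UMIs) and 300 or more genes, with mitochondrial UMIs not above 20%, which left 4370 cells at 14 d and 9033 cells at 28 d, together 13403 of the 43408 kept cells of all 5 libraries. The kept cells were assigned to compartments by marker genes, and 9 compartments with at least 50 cells in both libraries were compared. Because each group is a single library, no test of the time points was possible. All intervals are 95% intervals that cover counting error alone. They are exact, except that those of differences in share combine the exact bounds of both shares. The time after irradiation cannot be told apart from differences between animals, dissociations or libraries.

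The study followed radiation-induced skin injury in male Sprague-Dawley rats, bought young, whose shaved buttock skin received a single dose of electron beam radiation. The labels name control skin and skin irradiated 7 d, 14 d, 28 d and 60 d before sampling, with 1 library each, and the dose is not on the labels. All groups are the same strain with no genetic change stated, irradiation was done under anaesthesia, and how many animals a library holds is not stated in the sources used here. Skin was minced and digested with collagenases, dispase and trypsin, so the cells recovered also reflect which cells left the tissue intact, and libraries were made with droplet-based 3' chemistry.

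Ionizing radiation damages the dividing basal keratinocytes of the epidermis, and the acute reaction passes from inflammation and loss of the epithelium to regrowth. In a healing epidermis, keratinocytes take on an activated state with S100a8, S100a9 and Krt16, and later return to the program in which Krt5 and Krt14 mark the basal layer and Krt1 and Krt10 the layers above it. Resident immune cells of rodent epidermis, Langerhans cells and T cells, lie between the keratinocytes, and type I interferon, chemokines and interleukin 17 link them with the dermis.

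The 14 d library held 6012 barcodes and the 28 d library 10721, of which 72.7% and 84.3% were kept. Mitochondrial UMIs passed 20% in 25.5% of the barcodes at 14 d and in 14.1% at 28 d. The kept cells carried 67010094 UMIs at 14 d and 84783363 at 28 d, with medians of 6978.5 and 5656 UMIs per cell. The libraries shared 11 barcodes, 5 of them kept in both. Among kept cells a different measure, the mitochondrial share in summed UMIs, was higher at 28 d in each of the 9 compartments. For example, it was 3.37% at 14 d against 5.75% at 28 d in keratinocyte-gated cells and 4.28% against 7.75% in T and NK-gated cells.

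Composition differed most in the stroma and among immune cells. Keratinocyte-gated cells were the largest compartment, with 46.0% of cells at 14 d (2011 cells) and 48.4% at 28 d (4374 cells), a difference of 2.4 percentage points with an interval of 0.589 to 4.22. Their share was 39.0% in control skin, 10.0% in the 7 d and 72.3% in the 60 d library, so the epidermal share was close at 14 d and 28 d and higher in the latest library. Fibroblast-gated cells made up 1.92% at 14 d (84 cells) and 7.76% at 28 d (701 cells), which is 5.84 points more (interval 5.13 to 6.53) and a ratio of 4.04. Even so, 28 d stayed far from control skin (36.9%) and from 7 d (66.9%), and close to 60 d (8.27%).

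Vascular and nerve cells took smaller shares at 28 d. Endothelial-gated cells, which line vessels, made up 5.33% at 14 d (233 cells) and 0.897% at 28 d (81 cells), a difference of -4.44 points (interval -5.17 to -3.75). Mural cells, the smooth muscle cells and pericytes around vessels, were 8.33% against 5.88% (364 and 531 cells, difference -2.45 points, interval -3.43 to -1.5). Schwann-gated cells, the glia of peripheral nerves, were 2.65% against 1.57% (116 and 142 cells, difference -1.08 points, interval -1.66 to -0.548). Shares add up to a whole, so a larger share of another compartment lowers these values without any loss of cells, and fewer cells of a type cannot be told apart from a lower yield of that type.

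The immune compartments summed to 25.1% at 14 d and 23.6% at 28 d, a difference of -1.49 points whose interval reached from -3.07 to 0.0696, but their makeup differed. Plasmacytoid dendritic-gated cells, named for the dendritic cells that release type I interferon, were 8.9% at 14 d (389 cells) and 0.886% at 28 d (80 cells), 8.02 points apart (interval for the difference -8.92 to -7.16). In control skin, at 7 d and at 60 d their share was 0.0886%, 0.159% and 0.105%. The shares at 14 d and 28 d both lay above those, and the 14 d share was by far the highest. Mononuclear phagocytes, the gate for macrophages, Langerhans cells and other dendritic cells, were 3.0% at 14 d (131 cells) and 7.96% at 28 d (719 cells), a difference of 4.96 points (interval 4.18 to 5.72). T and NK-gated cells were 9.61% against 12.3% (420 and 1113 cells, difference 2.71 points, interval 1.58 to 3.82). Neutrophil-gated cells were 3.48% against 2.37% (152 and 214 cells, difference -1.11 points, interval -1.77 to -0.488). All 9 differences kept their sign under each alternative filter, gate and denominator tried.

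**Figure D1:**
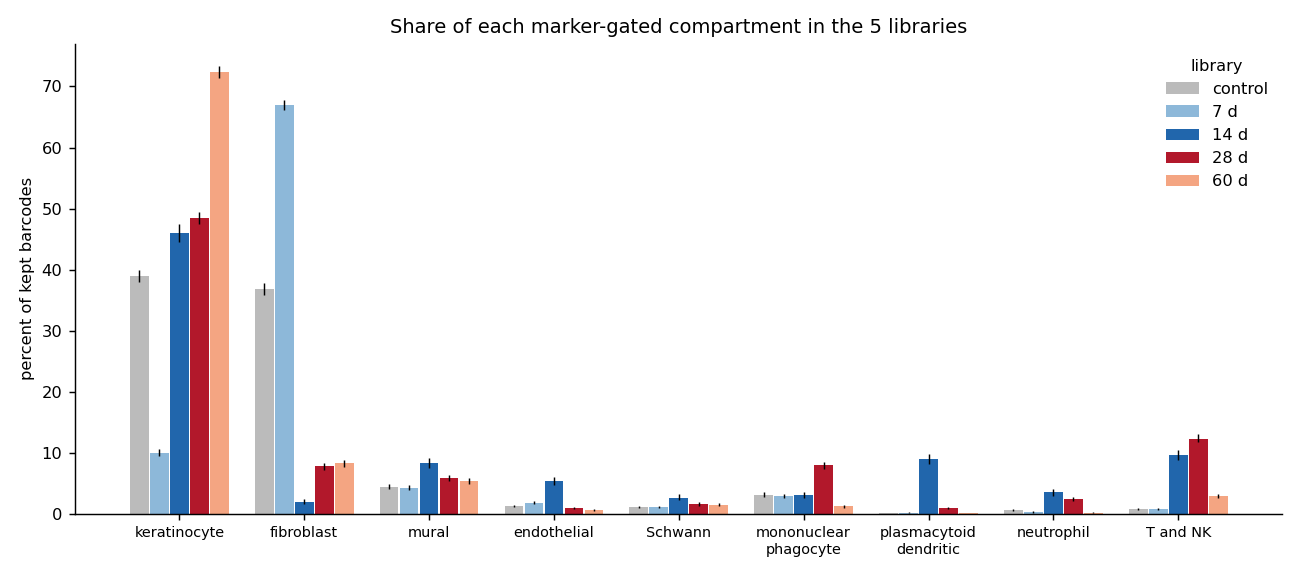
Share of kept cells (percent, y axis) in each compartment for the 5 libraries, with exact 95% counting intervals, values below being those of 14 d and 28 d. Fibroblast-gated cells (1.92% and 7.76%) and mononuclear phagocytes (3.0% and 7.96%) were larger at 28 d, and endothelial-gated (5.33% and 0.897%) and plasmacytoid dendritic-gated cells (8.9% and 0.886%) were smaller.

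The gates held their defining markers in both libraries. The 13 keratinocyte markers summed to 75910 CPM (UMIs of the gene per 1e6 UMIs of the compartment) at 14 d and 85900 at 28 d in keratinocyte-gated cells, and the 8 fibroblast markers to 75020 and 73880 in fibroblast-gated cells. Siglech, a surface lectin of plasmacytoid dendritic cells, had a UMI in 50.4% of the cells of that gate at 14 d and in 13.7% at 28 d, so the small gate of 28 d holds fewer cells with this defining marker and values within it compare partly different cells. In the neutrophil gate the 13 phagocyte markers summed to 1492 CPM at 14 d and 7040 at 28 d, and their part in the differences of that gate was not tested. Levels of a gate's own markers are partly set by the gate and are given as description, which holds below for Krt1, Krt5, Krt10, Krt14, Krt15, Krtdap and Dmkn in keratinocyte-gated cells, Cd207 and C1q genes in phagocytes, Siglech, Irf8, Runx2 and Bcl11a in plasmacytoid dendritic-gated cells, Cd3 genes, Icos and Nkg7 in T and NK-gated cells, Csf3r in neutrophil-gated cells, Col1a1 in fibroblast-gated cells, Kdr in endothelial-gated cells and Acta2 and Rgs5 in mural cells. Skeletal muscle-gated cells (16 and 31) were too few to compare.

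For each compartment, UMIs were summed over its cells in each library and expressed as CPM, and the log2 ratio of 28 d over 14 d was taken for each gene with at least 50 CPM in either library and at least 20 UMIs in the higher library. Such genes are called measured below, and at least 2-fold is counted as higher or lower. A gene was counted as library-wide when it was measured in at least 5 compartments and at least 2-fold in the same direction in all of them, and as a compartment's own when it was at least 2-fold there, the median of at least 3 other compartments lay within 0.5 of 0 on the log2 scale and its own ratio lay at least 1 from that median. The median log2 ratio of measured genes was within 0.07 of 0 in keratinocyte, fibroblast, mural, endothelial, Schwann and phagocyte gates, and was -0.29 in plasmacytoid dendritic-gated, 0.28 in neutrophil-gated and -0.22 in T and NK-gated cells.

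Few genes moved across the whole library. Of 2140 genes measured in at least 5 compartments, 3 (0.14%) were library-wide higher at 28 d and 5 (0.234%) library-wide lower. The higher genes are known from the epidermis. Krt15, a keratin of basal and follicle keratinocytes, was higher in all 9 compartments (log2 ratios from 1.47 to 5.73), Tgm3, the transglutaminase that crosslinks the cornified envelope, in 7 (2.24 to 4.3) and Col17a1, a collagen of the hemidesmosome, in 5 (1.09 to 3.74). In keratinocyte-gated cells Krt15 stood at 6235 CPM in control skin and 6363, 287.5, 2360 and 3647 CPM on days 7, 14, 28 and 60. In T and NK-gated cells, which do not make keratin, Krt15 followed the same order at 420.4, 435.2, 9.99, 175.7 and 361.5 CPM. Tgm3 in keratinocyte-gated cells was 243 CPM at 14 d and 1267 at 28 d, and Col17a1 was 146 and 522 CPM.

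The library-wide lower genes were Txn1, the cytosolic thioredoxin, in all 9 compartments (-2.88 to -1.48), Vbp1, a subunit of the prefoldin chaperone, in all 9 (-2.42 to -1.11), Snrpg, a core protein of the spliceosome, in 8 (-2.19 to -1.49), the interferon-induced gene Ifit2 in 6 (-2.24 to -1.13) and the unnamed gene model AABR07015057.1 in 5 (-2.84 to -1.83). Txn1 in keratinocyte-gated cells was 672 CPM in control skin and 992, 2926, 397 and 490 CPM on days 7, 14, 28 and 60, so 14 d was the high library. Snrpg was instead low at 28 d, with 162, 185, 184, 45.2 and 85.2 CPM in that order, and Vbp1 was likewise lowest at 28 d with 137, 139, 140, 28.2 and 61.2 CPM. When 1 compartment was allowed to miss the 2-fold limit, a choice made after the data were seen, 14 genes were higher and 26 lower. Isg15, Ifit3, Oasl, Oasl2, Rtp4, Ccl3, Cxcl3 and Gdf15 were among the lower genes and Cd74, RT1-Da, RT1-Ba, Krt1, Krt10 and Dcn among the higher ones.

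Transcripts of other cell types were higher at 28 d in most compartments. The summed keratinocyte markers were 1791 CPM at 14 d and 6828 at 28 d in fibroblast-gated cells, 2477 and 7139 in T and NK-gated cells, 3128 and 8583 in Schwann-gated cells and 6243 and 12710 in neutrophil-gated cells, and they were higher at 28 d in all 8 compartments outside the epidermis. The 8 fibroblast markers were 21.2 CPM at 14 d and 465 at 28 d in T and NK-gated cells, 21.5 and 239 in phagocytes and 14.8 and 133 in keratinocyte-gated cells. In Schwann-gated cells, however, they were 2252 and 2075 CPM. Over all compartments 36 of 54 measured pairs of keratin gene and compartment were at least 2-fold higher and 0 lower, beside 7.49% and 7.95% of the measured pairs over all genes, and 20 of 31 pairs of the collagen list were higher and 0 lower. Each higher value of a keratin or collagen in a compartment that does not make it therefore stands beside this library-wide level, and the part of free RNA or of mixed barcodes in it was not tested.

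The interferon response was lower at 28 d in every compartment. Interferon-stimulated genes carry out the antiviral program that type I and type II interferons switch on. Over all genes, 7.95% of the 22603 measured pairs of gene and compartment were at least 2-fold lower and 7.49% higher. Among 147 measured pairs of interferon gene and compartment, 95 were at least 2-fold lower and 1 was higher, and the list median was below 0 in 9 of 9 compartments, from -0.8 in plasmacytoid dendritic-gated cells to -2.24 in phagocytes. Isg15, a ubiquitin-like protein, was 5.49 CPM in control skin and 65.5, 87.0, 15.2 and 8.16 CPM on days 7, 14, 28 and 60 in keratinocyte-gated cells. In phagocytes it was 402 CPM at 14 d and 45.2 at 28 d, in endothelial-gated cells 717 and 145, and in neutrophil-gated cells 4394 and 1160. Plasmacytoid dendritic-gated cells differed from these, with Isg15 at 158 and 169 CPM. The list was also taken in subsets chosen after the data were seen. In phagocytes without a Cd207 UMI 10 of 19 measured genes were lower (median -1.0), against 15 of 19 in the whole gate. T and NK-gated cells without an Il17a or Il17f UMI had 6 of 15 lower (-0.7), against 8 of 15 (-1.06). Endothelial-gated cells without a UMI of Prox1, Flt4, Lyve1 or Ccl21 had 19 of 28 lower (-1.75), against 22 of 29 (-1.55).

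The promoters of 4 members of the interferon list are shown because the list was low in all compartments together and its genes are known for a shared element, the interferon-stimulated response element. The sequences are the 250 bases before the gene start from RefSeq on build GRCr8 (the expression data use Rnor_6.0), given 5' to 3' on the strand of the gene, and capitals mark each match to 2 copies of the letters GAAA with any 2 bases between them, on either strand, overlapping matches included. Ifit3 lies at chr1:241527076-241527325 (plus strand), Rsad2 at chr6:48788121-48788370 (minus strand), Cxcl10 at chr14:15988816-15989065 (plus strand) and Oasl at chr12:47356293-47356542 (minus strand).
Ifit3: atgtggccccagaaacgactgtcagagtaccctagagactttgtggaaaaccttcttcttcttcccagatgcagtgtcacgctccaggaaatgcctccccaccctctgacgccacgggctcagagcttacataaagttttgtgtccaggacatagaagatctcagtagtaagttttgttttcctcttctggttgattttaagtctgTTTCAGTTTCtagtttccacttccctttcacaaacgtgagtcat
Rsad2: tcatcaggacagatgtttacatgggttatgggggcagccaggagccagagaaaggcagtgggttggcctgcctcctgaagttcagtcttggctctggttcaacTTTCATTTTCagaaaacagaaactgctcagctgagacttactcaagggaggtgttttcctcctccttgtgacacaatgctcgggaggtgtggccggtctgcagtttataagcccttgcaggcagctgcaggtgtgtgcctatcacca
Cxcl10: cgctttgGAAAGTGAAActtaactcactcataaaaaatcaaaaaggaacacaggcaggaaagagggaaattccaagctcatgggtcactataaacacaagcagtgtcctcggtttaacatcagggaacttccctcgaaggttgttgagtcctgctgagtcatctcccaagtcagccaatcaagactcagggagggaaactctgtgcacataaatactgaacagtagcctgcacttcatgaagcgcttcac
Oasl: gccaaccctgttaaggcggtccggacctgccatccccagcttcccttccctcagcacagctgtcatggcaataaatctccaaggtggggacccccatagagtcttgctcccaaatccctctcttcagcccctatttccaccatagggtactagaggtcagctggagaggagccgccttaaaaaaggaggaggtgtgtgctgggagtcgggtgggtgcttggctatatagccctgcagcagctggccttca

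The match lies at -44 to -35 from the gene start in Ifit3, at -147 to -138 in Rsad2 and at -243 to -234 in Cxcl10, and Oasl has none in this window. Of the 35 list symbols found in the files, 27 had 1 promoter entry and 17 of these (63.0%) held the motif between 250 bases before and 50 after the start, against 1312 of 33469 promoters (3.92%) overall. A match is a description of the letters, and its absence says only that they are not in this window. Ifit3, an inhibitor of viral translation, was 210 CPM at 14 d and 14.6 at 28 d in phagocytes and 1441 and 1276 in neutrophil-gated cells. Rsad2, which encodes the antiviral protein viperin, was 95.2 and 2.89 CPM in fibroblast-gated cells. Cxcl10, the chemokine that draws CXCR3-bearing T cells, was 791 and 200 CPM in mural, 1557 and 465 in fibroblast-gated and 504 and 126 in phagocyte-gated cells.

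MHC class II genes, which present peptides to CD4 T cells, showed the opposite order. Of 33 measured pairs, 26 were at least 2-fold higher and 0 lower (7.49% and 7.95% of pairs over all genes), and the list median was above 0 in 7 of 7 compartments (0.55 to 5.23). The list summed to 25900 CPM at 14 d and 58330 at 28 d in phagocytes and to 10740 and 24290 CPM in plasmacytoid dendritic-gated cells. In phagocytes Cd74, the invariant chain, was 13630 CPM in control skin. It was 15450, 7488, 19960 and 14790 CPM on days 7, 14, 28 and 60, so 14 d was the lowest of the 5 libraries. In the same cells RT1-Da was 5665 CPM at 14 d and 14440 at 28 d, and RT1-Db1 was 7720 and 15790, while RT1-Bb was 2154 and 1181. The gate held more cells with Cd207 at 28 d (20.6% and 73.7%), and in phagocytes without a Cd207 UMI 0 of 5 measured class II genes reached 2-fold (median 0.39), with Cd74 at 3625 and 6512 CPM (0.85) and RT1-Da at 2790 and 3858 (0.47). Compartments that normally hold little of these transcripts had them at low levels and also higher at 28 d, as with Cd74 at 14.1 and 424 CPM in mural, 12.6 and 181 in endothelial-gated and 20.8 and 364 in Schwann-gated cells. In mural cells the share with a Cd74 UMI was 8.52% and 17.7%. Phagocytes made up 3.0% and 7.96% of the libraries, and the part of their free RNA in these low levels was not tested.

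In keratinocyte-gated cells, 224 of 2196 measured genes (10.2%) were at least 2-fold higher at 28 d and 100 (4.55%) lower. S100a8, S100a9 and Krt16 were lower, and most measured members of the basal and immediate early lists were at least 2-fold higher. S100a8 and S100a9 together form calprotectin, an antimicrobial and proinflammatory protein. S100a8 was 6.0 CPM in control skin and 70.6, 8110, 1102 and 308.5 CPM on days 7, 14, 28 and 60 (log2 ratio -2.88, interval -2.89 to -2.87), and S100a9 was 12.5, 67.4, 7184, 950 and 334 CPM (-2.92). At 28 d both lay between the 14 d value and those of control skin and 60 d. Krt16, a keratin of activated and hyperproliferative epidermis, was 12.5, 75.2, 905, 204 and 45.4 CPM (-2.15).

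The lower values of these genes were also seen at equal depth and in cells with mostly suprabasal as well as mostly basal markers. Median depth was 25375 UMIs at 14 d and 11631 at 28 d in keratinocyte-gated cells, so each cell was thinned to 1000 UMIs before cells with a UMI were counted. S100a8 or S100a9 had a UMI in 77.0% of thinned cells at 14 d (1514 of 1965) and 30.1% at 28 d (1298 of 4315), or 97.3% and 65.7% without thinning. T and NK-gated cells, which should lack both genes and had medians of 3773.5 and 1665 UMIs, had a UMI in 26.7% and 21.8% of thinned cells, so the keratinocyte share at 28 d lay much nearer this background than the share at 14 d. Krt16 had a UMI in 35.5% and 11.2% of thinned keratinocyte-gated cells (69.4% and 33.3% without thinning) against 1.48% and 1.02% in thinned T and NK-gated cells. Cells with more suprabasal than basal marker UMIs were 47.3% at 14 d and 41.1% at 28 d, compared with 18.3% in control skin, 9.98% at 7 d and 17.7% at 60 d. S100a8 was 11980 CPM at 14 d and 1861 at 28 d among the suprabasal cells and 3433 and 473 among the others, so the difference was present on both sides. Log2 ratios were -2.76 on both sides for S100a9 and -1.69 among the suprabasal cells and -3.09 among the others for Krt16.

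Wound-associated and cornification genes were split. In the wound keratinocyte list 4 of 15 measured genes were lower and 2 higher (median -0.17), beside a median of 0.04 over all measured genes. S100a6, a calcium-binding protein, was 5938 CPM at 14 d and 1110 at 28 d (-2.42), and Cst6, an inhibitor of cornification proteases, was 859 and 206 (-2.06). Krt1 and Krt10, the keratins that pair in the suprabasal layers, were higher. Krt1 was 4079 CPM in control skin and 612, 2653, 10100 and 5468 CPM on days 7, 14, 28 and 60 (1.93), and Krt10 was 5048, 950.5, 6252, 16080 and 8109 CPM (1.36). Other genes of late differentiation went either way. Tgm3 was higher, as given above, and Cnfn, cornifelin, was 286 and 41.0 CPM (-2.8), Krtdap 3225 and 1701, Dmkn 2760 and 1409 and Sbsn 1660 and 1031 CPM. Across the differentiation list, 3 of 16 measured genes were higher and 3 lower.

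Basal genes were higher as a group, with 7 of 12 measured members at least 2-fold higher, 0 lower and a median of 1.26. The basal keratins themselves differed little, with Krt5 at 7459 CPM at 14 d and 8918 at 28 d (0.26) and Krt14 at 1566 and 2356 (0.59). Col7a1, the anchoring fibril collagen under the basal layer, was 12.9 and 60.8 CPM (2.23). The cells with a UMI of the follicle transcription factors Lhx2 or Sox9 were 4.48% at 14 d and 10.5% at 28 d after thinning, against 31.7% in control skin and 0% and 1.02% in T and NK-gated cells. Without thinning they were 41.7% and 42.8%. The follicle keratin Krt79, also a marker of this gate, did not differ, with a UMI in 2.14% and 2.13% of thinned cells (5.32% and 5.49% without thinning). Cells with at least 2 UMIs of cycling markers were 7.53% and 5.61% after thinning (39.0% and 22.3% without it), beside 2.96% and 1.43% in T and NK-gated cells.

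Immediate early genes, which respond within minutes to growth factors and stress and also to tissue dissociation, were higher in keratinocyte-gated cells. Of 21 measured, 14 were at least 2-fold higher, 0 lower and all 21 above 0 (median 1.2). Nr4a1 encodes the orphan nuclear receptor Nur77. It was 153 CPM in control skin and 161, 32.8, 110 and 101 CPM on days 7, 14, 28 and 60 (1.75, interval 1.67 to 1.82), so the 14 d library was the low one. Egr1, a zinc finger factor, was 1464, 927, 154, 691 and 1144 CPM (2.17), and Btg2, an antiproliferative p53 target, was 2501, 2915, 415, 1481 and 2606 CPM (1.84). Cdkn1a, the cell cycle inhibitor p21, was 473, 833, 169.5, 329 and 181 CPM (0.96). In the p53 list 2 of 10 measured genes were higher and 0 lower (median 0.63), with Sesn2, a stress sensor upstream of mTORC1, at 80.2 and 241 CPM (1.58).

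Metabolic and signalling genes of keratinocyte-gated cells also differed. In the lipid synthesis list 5 of 9 measured genes were higher and 1 lower (median 1.02), while its summed level, which the abundant Fabp5 dominates, was 19530 CPM at 14 d and 10320 at 28 d. Among the higher genes was Hmgcs1, the cholesterol pathway synthase, at 154 and 346 CPM (1.17). Of 16 glycolysis and hypoxia genes 5 were lower and 1 higher (median -0.38), with the glycolytic enzyme Gapdh at 765 and 183 CPM (-2.06) and the lactate dehydrogenase Ldha at 1523 and 718 CPM (-1.08). Fabp5, the epidermal fatty acid binding protein, was 1498 CPM in control skin and 978, 18070, 8399 and 1792 CPM on days 7, 14, 28 and 60 (-1.11), and was lower as this compartment's own. The skin-homing chemokine Ccl27 was 1039, 78.1, 30.8, 320.5 and 512 CPM (3.38) and Cxcl14, a chemokine of resting epidermis, was 647, 2387, 118, 490 and 645 CPM (2.05). Both stood at their lowest at 14 d. Among the secreted factors that accompany senescence, Igfbp3 was 39.9 and 222 CPM (2.48), and 5 of 8 measured genes of that list were higher and 1 lower.

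**Figure D2:**
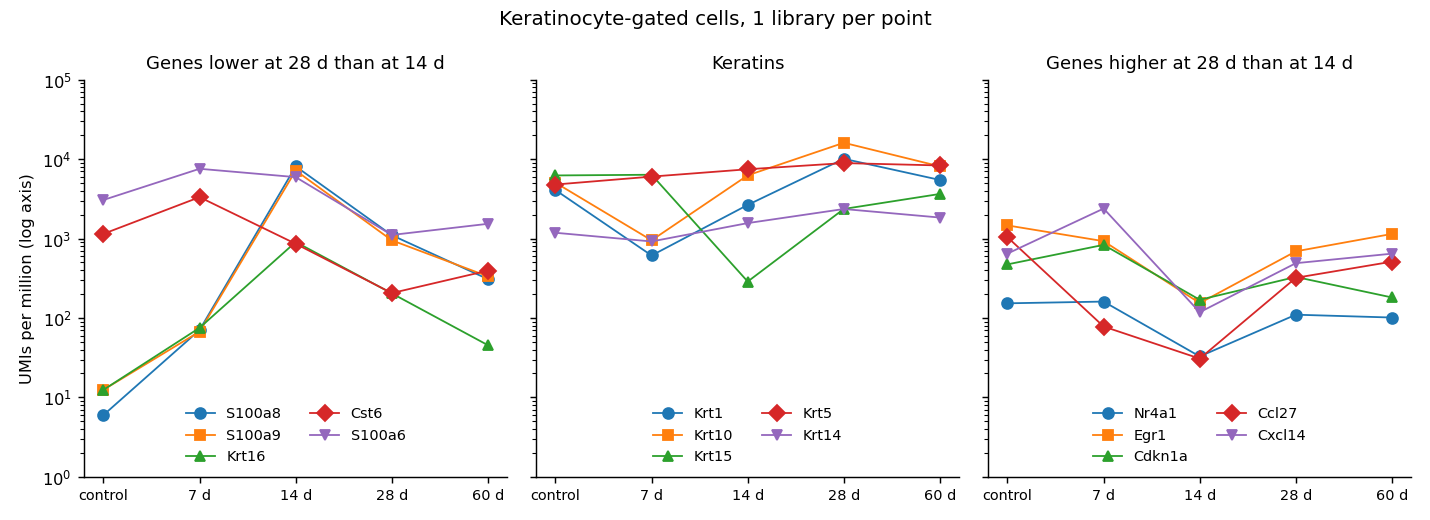
Levels of 15 genes in keratinocyte-gated cells (CPM, log y axis) in control skin and at 7 d, 14 d, 28 d and 60 d, with 1 library per point. S100a8 peaked at 14 d (8110 CPM) and was 1102 CPM at 28 d, while Nr4a1 was lowest at 14 d (32.8 CPM).

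In 17714 measured pairs of gene and compartment the gene was also measured in at least 3 other compartments, as an own call requires. Of these pairs, 511 (2.88%) were higher and 256 (1.45%) lower as the own gene of 1 compartment. Keratinocyte-gated cells held 92 of the own higher and 8 of the own lower pairs, among 1818 such pairs in that gate. Neutrophil-gated cells held the most own higher pairs (186 of 1072) and plasmacytoid dendritic-gated cells the most own lower pairs (65 of 2036). The median log2 ratio of measured genes was also highest in the neutrophil gate (0.28) and lowest in the plasmacytoid dendritic gate (-0.29). Own calls used ratios not centred on these medians, and the part of that in the ranking was not tested. For the genes named as furthest from the median of the other compartments, that median could rest on only 1 other compartment. By this rule Prss23, a serine protease, was 9.45 CPM at 14 d and 140 at 28 d in keratinocyte-gated cells (3.89). Nedd9, a scaffold of focal adhesions, was 11.8 and 57.6 CPM (2.29) and Tmcc3 was 24.7 and 59.8 CPM (1.28). Prss23 stood at 136 CPM in control skin and 197 at 60 d, so the 14 d library was low and the 28 d value lay close to control.

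In T and NK-gated cells, 131 of 2533 measured genes (5.17%) were at least 2-fold higher and 191 (7.54%) lower at 28 d, and the cytokine interleukin 17 and the cytotoxic genes moved in opposite directions. Il17a, the cytokine that drives keratinocyte antimicrobial and neutrophil-attracting responses, was 13.6 CPM in control skin and 160, 1197, 5229 and 975 CPM on days 7, 14, 28 and 60 (2.13, interval 2.06 to 2.2). The 28 d library was thus the highest of the 5. Its partner Il17f was 0, 68.1, 359, 469 and 58.9 CPM (0.39), and Il22, which acts on epithelia, was 0, 28.6, 34.7, 144 and 25.4 CPM (2.06).

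Cells with a UMI of Il17a or Il17f were 15.6% of thinned T and NK-gated cells at 14 d (63 of 405) and 60.2% at 28 d (589 of 979), or 20.7% and 63.8% without thinning. In thinned keratinocyte-gated cells the shares were 0.0509% and 1.65%, which gives the background. In T and NK-gated cells of control skin the share was 1.32%, and on days 7 and 60 it was 6.59% and 16.7%. The T cell receptor chains Cd3e, Cd3d or Cd3g had a UMI in 59.3% and 73.3% of thinned cells, and the costimulator Icos in 46.9% and 61.9%, beside at most 0.417% and 0.649% in keratinocyte-gated cells. Foxp3, the factor of regulatory T cells, was seen in 3.95% and 1.43% of thinned cells.

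Cytotoxic genes were lower, with 9 of 13 measured members at least 2-fold lower, 1 higher and a median of -1.33, beside -0.22 over all measured genes of the compartment. The granule proteases Gzmk and Gzmm were 352 and 76.0 CPM (-2.21) and 663 and 210 CPM (-1.66), and the pore-forming Prf1 was 130.5 and 52.3 CPM (-1.32). Ccl5, a chemokine of effector T and NK cells, was 14640 CPM in control skin and 5497, 4455, 1852 and 11910 CPM on days 7, 14, 28 and 60 (-1.27), so 28 d was the lowest library. The granule gene Nkg7 had a UMI in 24.2% of thinned cells at 14 d and 8.48% at 28 d (34.5% and 9.7% without thinning), with 0.0509% and 0.0232% in keratinocyte-gated cells. The higher member was Cst7, cystatin F, at 61.1 and 149 CPM (1.28). In cells without a UMI of Il17a or Il17f, 4 of 14 measured cytotoxic genes were lower and 1 higher (median -0.54), with Gzmk at -1.19, Prf1 at -0.79, Gzmm at -0.61 and Ccl5 at -0.21. No UMI of the granzyme Gzmb was seen in 420 cells at 14 d or 1113 at 28 d, which allows shares of cells with a UMI of up to 0.874% and 0.331% by the exact interval.

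Of 22 measured immediate early genes in T and NK-gated cells, 9 were higher, 0 lower and 21 above 0 (median 0.78). Nr4a1, which T cell receptor signalling also induces, was 87.4 CPM in control skin and 266, 146, 499 and 642 CPM on days 7, 14, 28 and 60 (1.77). Cdkn1a was 82.3 and 191 CPM (1.21), higher as the own gene of this compartment. The epidermal growth factor ligand Hbegf, at 25.3 and 159 CPM (2.66), was furthest above the median of the other compartments, followed by Ldlrad4 (519 CPM at 28 d, 1.21) and Rapgef2 (63.4 CPM, 1.08). At the low end were the adaptor Scimp at 85.8 and 1.45 CPM (3 UMIs at 28 d, -5.89, interval -8.18 to -4.31), the channel subunit Lrrc8d (-1.9) and the granzyme inhibitor Serpinb9 (-1.41). In cells without a UMI of Il17a or Il17f, a subset chosen after the data were seen, the ratios of Hbegf, Nr4a1 and Cdkn1a were 2.87, 1.62 and 1.35, while Ldlrad4 (0.94) and Serpinb9 (-0.86) no longer reached 2-fold.

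**Figure D3:**
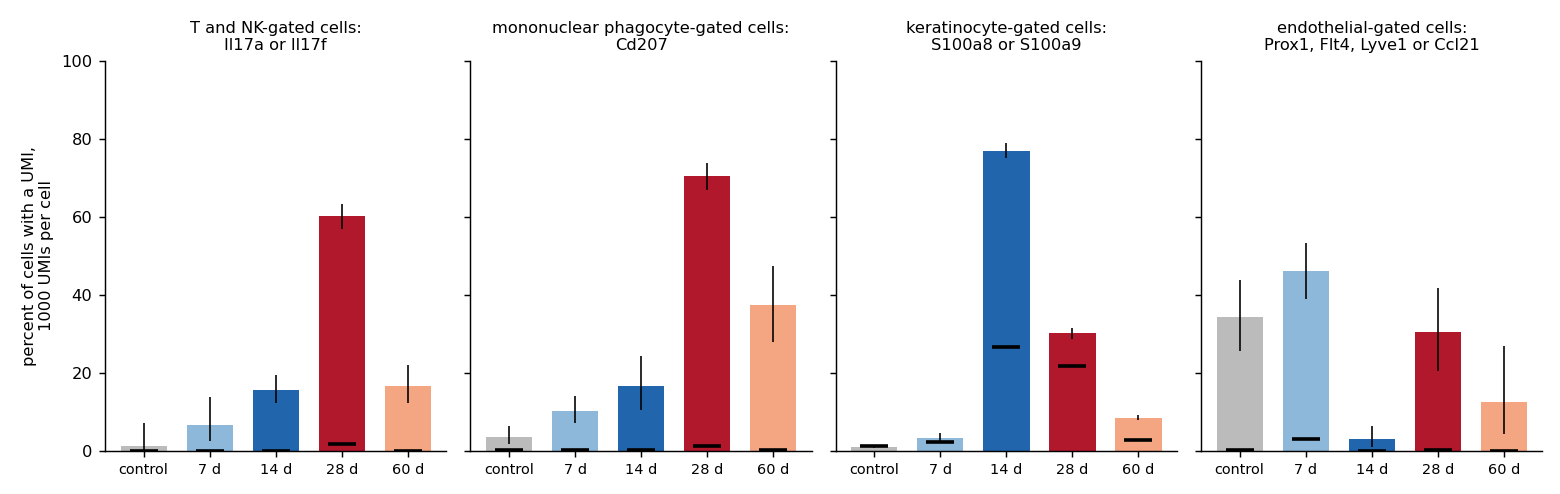
Share of cells (percent, y axis) with a UMI of the named genes after thinning to 1000 UMIs, in the 5 libraries, with exact 95% counting intervals, and black dashes for a cell type that should lack the gene. From 14 d to 28 d, Il17a or Il17f went from 15.6% to 60.2% of T and NK-gated cells and Cd207 from 16.5% to 70.5% of phagocytes. S100a8 or S100a9 went from 77.0% to 30.1% of keratinocyte-gated cells, and Prox1, Flt4, Lyve1 or Ccl21 from 2.93% to 30.4% of endothelial-gated cells.

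In mononuclear phagocytes, 211 of 2471 measured genes (8.54%) were at least 2-fold higher and 263 (10.6%) lower. Cd207, the lectin langerin of Langerhans cells, was 644 CPM in control skin and 910, 759, 4746 and 2249 CPM on days 7, 14, 28 and 60 (2.64, interval 2.53 to 2.76). A Cd207 UMI was found in 16.5% of thinned phagocytes at 14 d (21 of 127) and 70.5% at 28 d (501 of 711), or 20.6% and 73.7% without thinning, with 0.204% and 1.32% in keratinocyte-gated cells. Epcam, an adhesion protein of Langerhans cells and epithelium, was 16.4 and 153 CPM (3.22). The complement genes C1qa, C1qb or C1qc, of macrophages, had a UMI in 33.9% and 26.4% of thinned cells, so the 28 d gate held relatively more langerin-bearing cells.

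Most measured chemokines were lower in the phagocyte gate as a whole. Of 13 measured, 8 were lower and 2 higher (median -1.36, beside -0.01 over all measured genes). Ccl4, an inflammatory chemokine, was 2372 CPM in control skin and 1392, 8230, 454 and 647 CPM on days 7, 14, 28 and 60 (-4.18). Ccl3 was 4360 and 518 CPM (-3.07), and the neutrophil attractants Cxcl1 and Cxcl3 were 9667 and 2981 CPM (-1.7) and 9976 and 2029 CPM (-2.3). In the list of macrophage and dendritic states 4 of 13 measured genes were lower and 2 higher (median -0.54). Spp1, osteopontin, was at 38.3, 14.0, 5365, 921 and 128 CPM across the 5 libraries (-2.54), and Nos2, the inducible nitric oxide synthase, was at 5.97, 84.2, 1479, 261 and 0 CPM (-2.5). Arg1, arginase, was 2.49, 11.1, 573, 42.6 and 4.31 CPM (-3.75), and all 3 were highest at 14 d.

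Il1b was 1982 and 547 CPM (-1.86) and the haem oxygenase Hmox1 was 986 and 214 CPM (-2.21) in phagocytes. In all, 6 of 7 measured genes of the senescence and secretory list were lower (median -1.7). Higher at 28 d was Ccl24, a chemokine of eosinophils, with 6.33 and 86.0 CPM (3.77). Furthest from the median of other compartments were Atp8b1 (2.53 CPM, 2 UMIs, at 14 d and 128 CPM at 28 d, 5.66, interval 3.8 to 8.71), Dpp4 (3.0) and Hip1r (1.41) on the high side and the protease inhibitor Slpi (2165 and 205.5 CPM, -3.4), Mcemp1 (-3.26) and Nuak2 (-1.11) on the low side. In phagocytes without a Cd207 UMI, a subset chosen after the data were seen, 167 genes were lower, 105 of them among the 263 of the whole gate, and 212 were higher, 71 of them among the 211. Slpi was at -1.88, Mcemp1 at -1.84 and Nuak2 at -0.35 there.

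The ratios of the inflammatory genes named next were nearer 0 in phagocytes without a Cd207 UMI than in the whole gate. Of 15 chemokines measured in that subset 6 were lower and 5 higher (median -0.67), with Ccl4 at -2.72, Ccl3 at -1.58, Cxcl3 at -0.96 and Cxcl1 at -0.67. Arg1 was at -2.29, Hmox1 at -1.49, Spp1 at -1.04, Nos2 at -1.01 and Il1b at -0.97. In the state list 4 of 13 were lower and 3 higher (median 0.68), and in the senescence and secretory list 1 of 10 was lower and 2 higher (median -0.47). Ccl4, Ccl3, Arg1, Hmox1, Spp1 and Nos2 thus remained at least 2-fold lower, whereas Cxcl1, Cxcl3 and Il1b did not.

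In the plasmacytoid dendritic gate, 113 of 2661 measured genes (4.25%) were higher and 337 (12.7%) lower at 28 d, with a median of -0.29. Siglech was 214 CPM in control skin and 161, 333, 73.4 and 0 CPM on days 7, 14, 28 and 60 (-2.18), whereas the lineage factors Runx2 (213 and 279 CPM) and Bcl11a (158 and 154 CPM) were close. Irf8, which dendritic cells of several kinds need, was 1947 and 1270 CPM. Cd207 was 10.3 and 459 CPM (5.47), with a UMI in 2.31% and 15% of these cells, and Apoe, an apolipoprotein of macrophages, was 214 and 1207 CPM (2.49). In the MHC class II list 3 of 5 measured genes were higher and 0 lower. Lgals3bp (2.6), Rnd3 (2.39) and Mylip (2.25) were furthest above the median of other compartments, and the lipoprotein lipase Lpl (63.0 and 7.34 CPM, 2 UMIs at 28 d, -3.1), Cbr3 (-2.14) and Bms1 (-1.79) furthest below.

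In neutrophil-gated cells, 309 of 1313 measured genes (23.5%) were higher and 175 (13.3%) lower, shares that go with a median of 0.28 and with the shallowest cells (1573 and 1021 UMIs). S100a8 and S100a9, which neutrophils hold in bulk, were 10040 and 10310 CPM (0.04) and 24440 and 22690 CPM (-0.11), in contrast with keratinocyte-gated cells. Ccl3 was 26080 CPM at 14 d and 9464 CPM at 28 d (-1.46), and Ccl4 was 1027 and 58.0 CPM (-4.15) at 14 d and 28 d. Il23a, the subunit of the cytokine that sustains interleukin 17 production, was 1643 and 704 CPM (-1.22). The chemokine Ccl6 was 4665 CPM in control skin and 959, 407, 2068 and 3721 CPM on days 7, 14, 28 and 60 (2.35), and the receptor Csf3r was higher (101 and 228 CPM, 1.18). Il17ra, the receptor of interleukin 17A (31.0 and 178 CPM, 2.52), Pla2g7 (96.9 and 360.5 CPM, 1.9) and Elmsan1 (2.97, 3 UMIs at 14 d) were furthest above the median of other compartments, and Ifi44 (-4.76, 1 UMI at 28 d), Rtp4 (-3.99, 2 UMIs at 28 d) and Rnaset2 (-2.49) furthest below.

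In fibroblast-gated cells, 166 of 2604 measured genes (6.37%) were higher and 142 (5.45%) lower at 28 d, while the main collagen was almost level. Col1a1, the chain of type I collagen, was 44700 CPM at 14 d and 38640 at 28 d (-0.21). In the extracellular matrix list 3 of 25 measured genes were higher and 3 lower (median -0.1). The fibril-associated collagens Col12a1 (204 and 535.5 CPM, 1.39) and Col14a1 (145.5 and 436 CPM, 1.58) and the matricellular Tnc (111 and 232 CPM, 1.06) were higher. Timp1, an inhibitor of metalloproteinases, was 3552 and 1213 CPM (-1.55) and Eln, elastin, was 594 and 246 CPM (-1.27). Of the TGF-beta and myofibroblast list 3 of 12 were higher and 1 lower, with Tagln, an actin-binding protein of contractile cells, at 20.8 and 120 CPM (2.53) and the ligand Tgfb1 at 72.7 and 26.6 CPM (-1.45). Only 84 fibroblast-gated cells at 14 d stand behind these values.

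In fibroblast-gated cells, 7 of 10 measured chemokines were at least 2-fold lower and 0 higher (median -1.63). Ccl2, the monocyte attractant, was 16560 CPM in control skin and 5656, 6898, 2066 and 1666 CPM on days 7, 14, 28 and 60 (-1.74), and Cxcl6 was 83.1 and 10.3 CPM (-3.02), whereas Cxcl1 was 4606 and 4217 CPM. Il6 was 1327 and 632 CPM (-1.07). Apod, an apolipoprotein, was 2019, 1608, 19050, 4198 and 5321 CPM across the 5 libraries (-2.18), and Cxcl14 was 1177, 1505, 6712, 2132 and 2164 CPM (-1.65), so both peaked at 14 d. Esm1, endocan, was 525 and 43.4 CPM (-3.6), with a UMI in 16.7% and 3.71% of cells. Genes furthest above the median of other compartments were Id1, a target of BMP signalling (31.2 and 191 CPM, 2.62), Cdkn1c, the cell cycle inhibitor p57 (26.0 and 146 CPM, 2.49), and Inhba, the activin A subunit (74.5 and 254 CPM, 1.77). Cdkn1a was 596 and 570 CPM and Nr4a1 300 and 349 CPM, both within 2-fold.

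In endothelial-gated cells, 326 of 3191 measured genes (10.2%) were higher and 265 (8.3%) lower, and the mixture of blood and lymphatic vessels differed. Prox1 is the master factor of lymphatic endothelium, and Lyve1, Flt4 and Ccl21 also mark it. A UMI of any of these 4 genes, a set chosen after the data were seen, was found in 2.93% of thinned cells at 14 d (6 of 205) and 30.4% at 28 d (24 of 79), or 9.87% and 50.6% without thinning, against 0.0509% and 0.278% in keratinocyte-gated cells. The share was 34.2% in control skin and 46.0% and 12.5% on days 7 and 60, so 14 d was the lowest. Lyve1, a hyaluronan receptor, was 330 CPM in control skin and 1107, 26.8, 1042 and 1278 CPM on days 7, 14, 28 and 60 (5.28), and Ccl21, the chemokine that guides dendritic cells into lymph vessels, was 8888, 29080, 915, 15440 and 1756 CPM (4.08).

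The vascular list of the endothelial gate went both ways, with 7 of 17 measured genes higher and 4 lower (median 0.56). Esm1 and Apln, genes of sprouting tip cells, were 13.4 and 889 CPM (6.05, interval 5.33 to 6.87) and 50.3 and 923 CPM (4.2), and Kdr, the receptor of VEGF, and Angpt2, an antagonist of the Tie2 receptor, were 219 and 517 CPM (1.24) and 61.2 and 214.5 CPM (1.81). Of the adhesion receptors of inflamed endothelium, Selp was at 637 and 54.8 CPM (-3.54), Sele at 357 and 88.2 CPM (-2.02), Icam1 at 974 and 431.5 CPM (-1.17) and Vcam1 at 108 and 69.1 CPM (-0.65). Plvap, of fenestrated vessels, was 2764 and 1347 CPM (-1.04). Apoe was 6818 and 913 CPM (-2.9), and Tcf15 was 173 and 7.15 CPM (3 UMIs at 28 d, -4.59). Leaving out cells with a UMI of the 4 lymphatic genes left 210 and 40 cells, in which 68 genes were higher and 410 lower, with Esm1 at 6.43, Apoe at -1.88, Tcf15 at -2.89 and Atp8b1 at -0.79 in place of -1.02. Of the 326 higher genes 34 were also counted as higher in the remaining cells, Esm1 and Apln (2.74) among them, and of the 265 lower genes 181 were also lower. In those cells Kdr was at 0.29, and of 13 measured genes of the vascular list 3 were higher and 4 lower (median 0.22). The values given above for the adhesion receptors, Plvap and Angpt2 are those of the whole gate, in which the share of cells with lymphatic genes differed.

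In mural cells, 58 of 2672 measured genes (2.17%) were higher and 104 (3.89%) lower. Acta2, smooth muscle actin, was 3511 CPM in control skin and 4869, 6463, 2775 and 5272 CPM on days 7, 14, 28 and 60 (-1.22), and Rgs5, a pericyte gene, was 682, 465, 110, 336 and 64.7 CPM (1.62). In the matrix list 8 of 19 measured genes were higher and 1 lower (median 0.63), among them the proteoglycan Bgn at 502 and 1288 CPM (1.36) and the collagen Col6a1 at 31.6 and 91.6 CPM (1.54). Mmp2, gelatinase A, was 34.8, 288, 76.9, 262.5 and 55.5 CPM across the 5 libraries (1.77). Dcn, decorin, was 11.6 and 172 CPM (3.89), and beside it the summed fibroblast markers were 467 and 1091 CPM in this gate, whose part in these values was not tested. The chemokine Cxcl12 was 51.6 and 2.21 CPM (-4.54). Atf6, a sensor of the unfolded protein response, was 239 and 89.9 CPM (-1.41), and with Areg (-1.43) and Niban1 (-1.33) was furthest below the median of the other compartments. Single compartments were lower still, with Atf6 at -2.13 in Schwann-gated, Niban1 at -1.35 in fibroblast-gated cells and Areg at -2.16 in phagocytes. Tent5a (1.42), Mmp2 and Col6a1 were furthest above that median.

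In Schwann-gated cells, 155 of 2962 measured genes (5.23%) were higher and 221 (7.46%) lower. Of the list of Schwann genes, 1 of 15 measured members was higher and 1 lower (median 0.0). Sox2, of immature and repair Schwann cells, was 260 and 112 CPM (-1.21), and Gap43, a growth-associated protein, was 62.4 and 126 CPM (1.02). Of the chemokines, 6 of 10 measured were lower and 2 higher (median -1.68), with Cxcl2 at 990 and 64.4 CPM (-3.94) and Ccl3 at 558.5 and 5.6 CPM (2 UMIs at 28 d). Igfbp3 was 18.2 and 367 CPM (4.33). Hbegf was 1572 and 599 CPM (-1.39). Furthest above the median of other compartments were Tes (3.43, interval 1.39 to 6.57, 2 UMIs at 14 d), Spint2 (2.69) and Dpm2 (1.86), and furthest below were Nabp1 (-3.16, 3 UMIs at 28 d), Lama4 (-1.23) and Col14a1 (-1.2).

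Nr4a1 was given in every compartment because the study turned on it. It was at least 2-fold higher at 28 d in T and NK-gated (1.77), keratinocyte-gated (1.75) and plasmacytoid dendritic-gated cells (1.01, interval 0.38 to 1.59, 56.6 and 114 CPM). In the other six compartments it differed by less than 2-fold, with 0.38 in neutrophil-gated, 0.22 in both fibroblast-gated and Schwann-gated, -0.1 in endothelial-gated and -0.42 in mural cells and -0.83 in phagocytes, where it was 101 and 56.9 CPM. In phagocytes without a Cd207 UMI the ratio was 0.01. Over all compartments 40 of 206 measured pairs of immediate early gene and compartment were higher and 8 lower, beside 7.49% and 7.95% of pairs over all genes, and these genes also respond to tissue dissociation, whose part was not tested. Cdkn1a reached 2-fold in T and NK-gated cells alone, and elsewhere its ratios ran from -0.43 in Schwann-gated to 0.96 in keratinocyte-gated cells.

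The library-wide genes and those furthest from the median of other compartments were searched for opposite directions. For 12 of them the whole counting interval lay beyond 2-fold upwards in 1 compartment and downwards in another. This choice favours genes that differ between compartments, and other genes were not searched, so the 12 are a description only. Esm1 was higher in endothelial-gated (6.05) and lower in fibroblast-gated cells (-3.6), Cxcl14 was higher in keratinocyte-gated (2.05) and lower in fibroblast-gated cells (-1.65), and Hbegf was higher in T and NK-gated (2.66) and lower in Schwann-gated cells (-1.39).

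**Figure D4:**
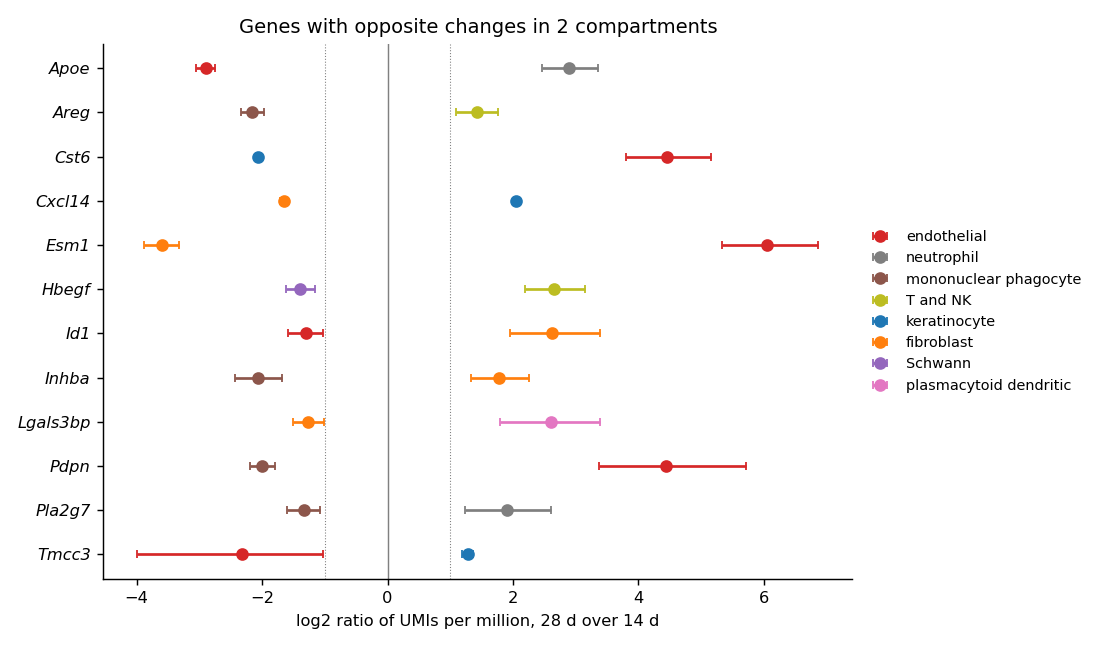
Log2 ratio of 28 d over 14 d (x axis) with exact 95% counting intervals for 12 genes, each in the compartment where it was higher and in the one where it was lower. Esm1 lay at 6.05 in endothelial-gated and -3.6 in fibroblast-gated cells.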

How the data were processed

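The deposited values are raw counts of UMIs per barcode and gene, without normalization, and the submitters' processing notes name Rnor_6.0 as the build and, as tools of the authors, Seurat 3.1.1, STAR and Cell Ranger 5.0.0. Rows that share a symbol were summed. The members of the comparison, the gene lists and the markers were chosen with earlier results of these data known, and the score thresholds of the gates were set after the score distributions had been seen. Barcodes were scored on 14 gates (111 of 118 marker symbols found), barcodes positive for 2 gates were set apart, and 482 of 507 symbols of the 29 lists were found. A doublet caller, Scrublet, called only 2 and 0 barcodes with its own threshold and so did not work; removal of the 6% with the highest scores was tried. Per compartment, the text names the 3 genes highest and the 3 lowest against the median of other compartments, with a UMI in at least 10% of cells and at least 0.1 of the highest compartment's level, without the gate's markers, mitochondrial, ribosomal and unnamed genes, and, beside these, Nr4a1, Cdkn1a, defining markers and list members with the highest level or largest ratio. A few further list members were chosen after their values were seen. Ratios carry exact conditional binomial intervals, and a group at 0 takes a floor of 3 counts. UMIs remove PCR copies, and intervals cover counting error only. The calculations were tested on simulated data. Python 3.11.15, scanpy 1.11.5, scipy 1.17.1 and, for TMM factors, edgeR 4.0.16 in R 4.3.3 were used. Some members of the lists are not reported here.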

Additional observations from a re-analysis of the deposited data

Results flagged for a closer look

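The ratio of 28 d over 14 d ran in opposite directions in different compartments for 12 genes, and each pair of values was brought up because its compartments moved apart. The genes searched had themselves been chosen largely by their distance from the median of other compartments, and other genes were not searched. The differences between compartments were not tested, since there is 1 library at each time. All values are log2 ratios. Esm1 stood at 6.05 in endothelial-gated and -3.6 in fibroblast-gated cells, and Tmcc3 at 1.28 in keratinocyte-gated and -2.32 in endothelial-gated cells. Apoe was 2.9 in neutrophil-gated and -2.9 in endothelial-gated cells, and phagocyte markers were also higher in the neutrophil gate at 28 d (1492 and 7040 CPM). Pdpn, a glycoprotein of lymphatic endothelium, was 4.44 in endothelial-gated cells and -2.0 in phagocytes, and Cst6 was 4.45 in endothelial-gated and -2.06 in keratinocyte-gated cells. The endothelial gate of 28 d held a larger share of cells with lymphatic genes. In endothelial-gated cells without a UMI of Prox1, Flt4, Lyve1 or Ccl21, Cst6 had 17 UMIs at 14 d and 1 at 28 d and Pdpn 2 and 0 UMIs, both below the level at which a gene is measured, and Tmcc3 was at -0.69, Apoe at -1.88 and Esm1 at 6.43.

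Secreted factors of growth and attraction made up much of the remainder. Among ligands of the epidermal growth factor receptor, Areg was 1.42 in T and NK-gated cells and -2.16 in phagocytes, and Hbegf 2.66 in T and NK-gated and -1.39 in Schwann-gated cells. Cxcl14 was 2.05 in keratinocyte-gated and -1.65 in fibroblast-gated cells. Inhba was 1.77 in fibroblast-gated cells and -2.06 in phagocytes, and Id1, which BMP signals induce, was 2.62 in fibroblast-gated and -1.3 in endothelial-gated cells (-0.58 without the lymphatic genes). Lgals3bp was 2.6 in plasmacytoid dendritic-gated and -1.27 in fibroblast-gated cells, and Pla2g7, a phospholipase that degrades platelet-activating factor, was 1.9 in neutrophil-gated cells and -1.34 in phagocytes. In phagocytes without a Cd207 UMI, Areg was at -1.65, Inhba at -1.08, Pdpn at -0.61 and Pla2g7 at -0.13.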

How the results depend on the processing

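Each point of time is 1 library, so counting intervals do not cover the spread between animals, and shallow compartments with few cells (84 fibroblast-gated cells at 14 d, 80 plasmacytoid dendritic-gated and 81 endothelial-gated at 28 d) limit what could be seen. No paired analysis was possible because the groups hold 1 library each and no result comes from a test. No difference in share changed its direction under the alternatives run. Named genes at least 2-fold were checked only under alternatives in which they stayed measured, and none changed direction there. In endothelial cells without lymphatic gene UMIs, Cst6 fell below the measured level and changed direction (-1.16, 1 UMI left at 28 d). Pdpn also fell below that level in those cells. The sign did change for ratios below 2-fold of Nr4a1 in endothelial, phagocyte and neutrophil cells and of Cdkn1a in fibroblasts and plasmacytoid dendritic cells. Of the values computed under alternatives for the shares, counts and list totals, 225 stayed within the counting interval or within 1.5 times and 76 moved. All of these 76 are given here. For the ratios of named genes, with Nr4a1 and Cdkn1a in every compartment, 562 values stayed within the counting interval and 115 moved. These 115 are not listed here. The cause of these moves was not tested, except that a filter on level changes how many genes are counted. Counts are of genes at least 2-fold higher or lower at 28 d.

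Differences in share, in percentage points, moved as follows. With at most 10% mitochondrial UMIs they were 4.48 for keratinocytes, -3.92 for mural and 1.45 for T and NK cells. With the stricter gate they were 4.85 for keratinocytes and 1.31 for T and NK cells. With Leiden clusters they were 6.76 for fibroblasts, 3.9 for phagocytes and 3.85 for T and NK cells, and with at least 1000 UMIs per barcode -1.82 for neutrophils. With ungated and double barcodes left out, a choice made after the data were seen, they were 6.63 for fibroblasts and -8.92 for plasmacytoid dendritic cells.

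With TMM scaling, 136 genes were higher and 186 lower in keratinocytes (224 and 100 in the main scaling), 149 and 324 in neutrophils (309 and 175), and 127 lower in T and NK cells, so the balance of higher and lower counts in keratinocytes and neutrophils depended on the scaling. With each compartment's median ratio set to 0, which moved the plasmacytoid dendritic, neutrophil and T and NK compartments by -0.29, 0.28 and -0.22, plasmacytoid dendritic cells had 202 higher and 178 lower and T and NK cells 122 lower. With at least 200 CPM, higher and lower counts were 67 and 50 in keratinocytes, 42 and 61 in fibroblasts, 22 and 36 in mural, 59 and 97 in endothelial, 33 and 54 in Schwann, 68 and 93 in phagocytes, 53 and 86 in plasmacytoid dendritic, 134 and 77 in neutrophils and 50 and 49 in T and NK cells, with 32 interferon pairs lower and 15 MHC class II pairs higher. With no filter on level they were 2222 and 659 in keratinocytes, 1005 and 428 in phagocytes, 346 and 365 in mural and 442 and 696 in T and NK cells, with 1301 higher in fibroblasts, 543 lower in endothelial and 1186 lower in plasmacytoid dendritic cells, and 147 interferon pairs lower.

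Thinned to 1000 UMIs, higher and lower counts were 358 and 58 in fibroblasts, 354 and 150 in phagocytes, 51 and 580 in plasmacytoid dendritic, 45 and 76 in Schwann and 128 and 101 in neutrophils, with 59 higher in endothelial and 160 lower in mural cells. With at most 10% mitochondrial UMIs 95 genes were higher in mural cells and 9 were library-wide lower. With Leiden clusters 125 were higher in mural, 137 in phagocytes and 792 in neutrophils, 6 were library-wide higher and 8 lower, and 873 pairs were own higher. Chosen after the data were seen, the subset without Cd207 UMIs had 167 lower in phagocytes, the subset without lymphatic gene UMIs 68 higher and 410 lower in endothelial cells, and with 1 compartment allowed to miss the limit 14 and 26 genes were library-wide.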
